A study of Homo sapiens with 12 samples.

Results

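The type I interferon response and class I antigen presentation were followed through 50 listed genes in nascent RNA of T47D, a breast cancer line of luminal type that carries the estrogen receptor. The genes were chosen by symbol from a list drawn up by function, without a threshold on any measured value but with earlier results of these data known. All 50 were found among the 59410 genes kept in the count table. Of these, 43 had enough counts to be tested and 7 did not (IFI27, IFI44, IFI44L, B2M, HLA-C, HLA-E and PSMB9).

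Interferon binds a receptor made of IFNAR1 and IFNAR2, whose bound kinases JAK1 and TYK2 phosphorylate STAT proteins. STAT2, together with IRF9, then binds the interferon-stimulated response element (ISRE) in the promoters of antiviral genes, among them the OAS, IFIT and MX families and the RNA sensors RIGI and IFIH1. Interferon also raises genes that cut peptides (PSMB8, PSMB9), carry them into the endoplasmic reticulum (TAP1, TAP2), load them (TAPBP) and display them (HLA heavy chains with B2M), and in breast cancer cells this program contributes to how visible a tumour is to T cells.

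The assay was PRO-seq, a run-on method that sequences the RNA held by engaged RNA polymerases, so it reads transcription under way and not stored mRNA. There were 12 libraries in 6 groups of 2, with 3 days in medium and 1 h of treatment in every group. The hormone-starved groups received 1 nM estradiol, the natural ligand of the estrogen receptor, or vehicle. The complete-medium groups received fulvestrant, an antagonist that also leads to degradation of the receptor, raloxifene or tamoxifen, both selective modulators of the receptor, or vehicle. Each drug was given at 100 nM, and vehicle was 0.1% DMSO. No group received interferon, so the genes were read without added interferon, and interferon made by the cells themselves was not examined. That cells were starved is stated by the group names and the series design, and what carried the estradiol was not given. Each group's libraries carry the numbers 3 and 4, and no label says whether they are separate cultures. The p-values weigh differences against the spread within groups, estimated over all 12 libraries together and moderated across genes. That spread may therefore be technical.

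Library totals ran from 3682311 to 7856803 counts, and the 50 genes together held 4733 to 10223 counts per library. The tested members had a median total of 818 counts over all libraries, against 1177 for all 23375 genes tested, so many of them were measured with limited precision. Luminal markers summed to between 3290 and 4327 CPM (TMM-scaled) in the libraries. Blood and immune markers summed to between 21.6 and 31.0 CPM, basal and mesenchymal markers to between 12.4 and 20.3 CPM, and stromal and endothelial markers to between 21.7 and 30.9 CPM. The immune markers' summed level was 29.4 ± 1.55 CPM with estradiol and 26.7 ± 0.542 CPM with vehicle in starved cells, and 25.4 ± 2.27 CPM with vehicle in complete medium (SD, n = 2 each). PTPRC, the pan-leukocyte marker, had 1 to 3 counts per library and LYZ 0 to 1, while CD68, with 69 to 191, gave most of the immune sum. None of the 3 tested immune markers passed in either the estradiol or the starvation comparison.

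Promoter sequence was examined first, because the ISRE is the element through which interferon acts on its target genes. The ISRE core, written here as GAAA, any 2 bases and GAAA, was searched on both strands from 250 bases before to 50 bases after each RefSeq start. It was present in 25 of the 41 members with a listed promoter, or 61%. Among all 27305 genes with a listed promoter, 4.38% held it. The matches of PARP9 and DTX3L are the same bases read on opposite strands, counted for both genes here and in later counts. Many members were listed because interferon induces them, so a larger share was built into the list and says nothing about these cells. The estrogen response element, GGTCA, any 3 bases and TGACC, was in none of the 41 members and in 0.0732% of all genes, and a window without these letters says nothing about the receptor's binding elsewhere. The 170 bases before the start are shown for 4 members that were called in the comparisons given further on, with ISRE core matches in capitals. OAS3 and RIGI were called lower with estradiol, while IFI6, TAPBP and RIGI were called higher in starved cells. Each of these calls was lost under some alternative fits, as given further on.
OAS3, GRCh38.p14 chr12:112938304-112938473, plus strand: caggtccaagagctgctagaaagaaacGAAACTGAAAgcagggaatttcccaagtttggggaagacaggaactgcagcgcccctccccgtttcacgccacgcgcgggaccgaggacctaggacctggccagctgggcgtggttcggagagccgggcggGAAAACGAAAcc
IFI6, GRCh38.p14 chr1:27672193-27672362, minus strand: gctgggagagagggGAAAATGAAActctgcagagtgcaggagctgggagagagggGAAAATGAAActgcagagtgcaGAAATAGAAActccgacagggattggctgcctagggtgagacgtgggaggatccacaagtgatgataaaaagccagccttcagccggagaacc
TAPBP, GRCh38.p14 chr6:33314079-33314248, minus strand: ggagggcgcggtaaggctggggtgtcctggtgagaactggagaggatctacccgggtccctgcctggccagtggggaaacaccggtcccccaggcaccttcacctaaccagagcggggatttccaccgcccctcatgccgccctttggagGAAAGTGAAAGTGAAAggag
RIGI, GRCh38.p14 chr9:32526197-32526366, minus strand: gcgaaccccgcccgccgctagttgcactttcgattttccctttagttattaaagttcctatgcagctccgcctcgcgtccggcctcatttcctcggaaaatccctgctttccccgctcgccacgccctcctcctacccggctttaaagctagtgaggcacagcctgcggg
OAS3, an enzyme that makes the second messenger for RNase L, has 2 matches in its window. IFI6, a small membrane protein that limits viral replication, has 3. In TAPBP, which encodes tapasin, 2 matches share bases and form 1 run of capitals next to the start. RIGI, the cytosolic sensor of viral RNA, has none. Matches are letters in a sequence and were not tested for binding.

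JAK1, the kinase shared by type I, type II and many cytokine receptors, had the largest called change of any member with estradiol. Estradiol raised it in starved cells, starvation lowered it, and fulvestrant and raloxifene lowered it in complete medium. JAK1 stood at 548 and 493 CPM in the estradiol libraries, against 195 and 188 CPM in the starved vehicle libraries. The groups were far apart, and the log2 fold change was 1.44 ± 0.06 (SE; adjusted p = 2.18e-13, edgeR's quasi-likelihood test with Benjamini-Hochberg adjustment over all 23375 genes, as throughout). The starved vehicle libraries in turn lay below the vehicle libraries of complete medium, which had 499 and 507 CPM. That difference had a log2 fold change of -1.39 ± 0.06 (adjusted p = 3.78e-13). These 2 comparisons share the starved vehicle libraries and are not independent.

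Set directly against vehicle in complete medium, starved cells with estradiol overlapped in JAK1. The log2 fold change was 0.05, with a 95% interval from -0.06 to 0.16 (adjusted p = 0.616). In counts from a whole culture, fewer transcribing cells and less nascent RNA per cell cannot be told apart. The 8 luminal markers had a summed level of 3786 ± 67.9 CPM in starved cells with estradiol, 3313 ± 32.8 CPM in starved vehicle cells and 4301 ± 36.3 CPM in complete vehicle cells (SD, n = 2 each), but they did not move as one. With estradiol, 4 of the 8 were called higher and 1 lower, and in starved against complete vehicle cells 0 were higher, 2 (ESR1 and KRT8) were lower and the median log2 fold change was 0.01. ESR1, the gene of the estrogen receptor, singled out after its values were seen, averaged 1391 CPM in starved cells with estradiol, 1028 CPM in starved vehicle cells and 1996 CPM in complete vehicle cells. The part of these markers in JAK1's change was not tested. Because JAK1 alone gave between 16.7% and 39.5% of all member counts in a library, sums over members are given with and without it.

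The other receptor components did not follow JAK1. TYK2, the partner kinase, had 28.8 and 27.6 CPM with estradiol, against 24.8 and 26.3 CPM with vehicle in starved cells. IFNAR1 had 68.0 and 71.2 CPM with estradiol, against 62.4 and 66.1 CPM with vehicle. Both groups were separate by a small margin, and neither gene passed the test (adjusted p = 0.637 for TYK2 and 0.519 for IFNAR1). IFNAR2 had 6.84 and 7.49 CPM with estradiol, against 9.62 and 7.16 CPM with vehicle, and the groups overlapped (log2 fold change -0.24 ± 0.20). None of the 3 passed in any of the 9 comparisons.

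**Figure D1:**
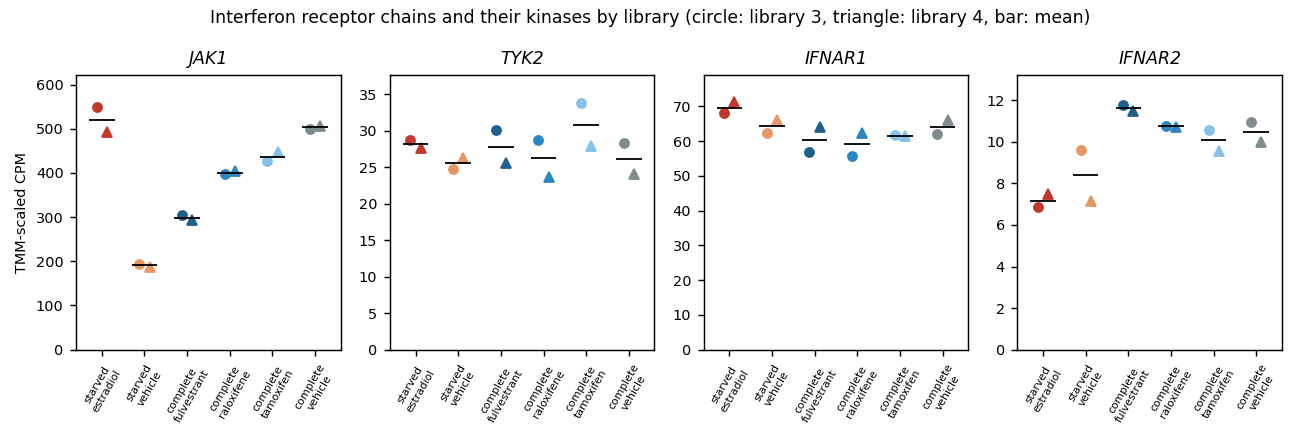
TMM-scaled CPM of JAK1, TYK2, IFNAR1 and IFNAR2 in each of the 12 libraries by group, with library 3 as a circle, library 4 as a triangle and the group mean as a bar, each panel on its own axis from 0. JAK1 runs from 188 CPM in a starved vehicle library to 548 CPM in an estradiol library, while the libraries of the other genes stay within a narrower range of levels.

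JAK1 lies at chr1:64833229-65067746 in GRCh38.p14, and its end overlaps that of the protein-coding gene RAVER2 by 4 bases. RAVER2, picked for this position after values were seen, had a log2 fold change of 0.01 with estradiol (adjusted p = 0.966). In starved against complete vehicle cells it fell by 0.43 on the log2 scale (adjusted p = 0.0016), in JAK1's direction but by less. Whether counts of the neighbour enter JAK1's was not tested. None of the 3 promoters listed for JAK1 held either motif. On the list of further pathway genes, estradiol raised JAK2, the partner of JAK1 at the interferon gamma receptor, to 64.4 CPM, against 45.8 CPM with vehicle (log2 fold change 0.49 ± 0.08; adjusted p = 0.000247). It lowered IKBKE, a kinase upstream of IRF3 (-0.46 ± 0.13; adjusted p = 0.0319), a call lost without starved vehicle library 3 (adjusted p = 0.471), estradiol library 3 (0.132) or estradiol library 4 (0.195). The other 62 of the 64 tested genes on that list did not pass, in a comparison that called 8.77% of all genes.

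Beside JAK1, estradiol changed 4 members, all of them antiviral effectors, RNA sensors or regulators of sensors, and all fell. RIGI, TRIM25, OAS3 and MX2 were the members that fell, and the other 38 of the 43 tested did not pass the test. Across all genes tested, 8.77% were called in this comparison, 5.04% higher and 3.74% lower, so 5 called members of 43 is near the background, with the falls a larger share and the rise a smaller one than among all genes. Whether that share differs from the background was not tested. Without TMM scaling, 1024 genes were called higher and 1217 lower. The median log2 fold change was -0.18 over the tested members and -0.01 over all genes tested. Negative values were found in 32 of 43 members and in 52.4% of all genes.

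RIGI had 24.1 and 23.0 CPM in the estradiol libraries, against 33.5 and 33.9 CPM in the starved vehicle libraries. Both estradiol libraries were low and the groups did not overlap. RIGI's log2 fold change was -0.51 ± 0.12 (adjusted p = 0.00748). TRIM25, the ubiquitin ligase that activates RIG-I, had 114 and 113 CPM with estradiol, against 134 and 138 CPM with vehicle. Its change was small but the libraries of each group lay close together (log2 fold change -0.26 ± 0.06; adjusted p = 0.00675). The rest of the class of RNA sensors and their regulators, IFIH1, DDX60, ADAR and EIF2AK2, overlapped between the groups. Their log2 fold changes ran from -0.18 for IFIH1 to 0.11 for DDX60.

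OAS3 had 24.9 and 28.7 CPM with estradiol, against 34.1 and 34.1 CPM with vehicle. Its log2 fold change was -0.35 ± 0.11 (adjusted p = 0.0407). The other OAS genes were also below both starved vehicle libraries without passing, with log2 fold changes of -0.65 for OAS1, -0.29 for OAS2 and -0.67 for OASL. Groups of this comparison did not overlap in 25 of the 43 tested members and in 49.4% of all genes. MX2, an inhibitor of viral nuclear import, had 2.18 and 1.83 CPM with estradiol, against 3.66 and 5.55 CPM with vehicle. These were few counts per library, and the log2 fold change was -1.18 ± 0.35 (adjusted p = 0.0406). Its paralog MX1 had 22.6 and 22.1 CPM with estradiol, against 26.0 and 24.4 CPM with vehicle, a change of -0.18 ± 0.11 that did not pass.

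Several further effectors were lower in both estradiol libraries without passing the threshold. IFI6 had 1.56 and 1.46 CPM with estradiol, against 3.12 and 3.65 CPM with vehicle (log2 fold change -1.15 ± 0.37; adjusted p = 0.0626). IFIT2, which binds foreign RNA with its family members, had 1.87 and 1.46 CPM with estradiol, against 4.2 and 2.78 CPM with vehicle (-1.05 ± 0.38; adjusted p = 0.101). The transcription factor IRF1 had 33.6 and 31.6 CPM with estradiol, against 39.0 and 44.4 CPM with vehicle (-0.35 ± 0.11; adjusted p = 0.0516). HERC5 and HERC6, ligases of the ISG15 system and its relatives, lay the other way. HERC5 had 2.80 and 3.10 CPM with estradiol, against 0.677 and 1.32 CPM with vehicle (1.56 ± 0.52; adjusted p = 0.0741).

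RIGI lost its call without any 1 of the 4 libraries, and TRIM25, OAS3 and MX2 lost theirs without any 1 of 3. Without estradiol library 3 the adjusted p was 0.0546 for RIGI, 0.0539 for TRIM25, 0.405 for OAS3 and 0.147 for MX2. Without estradiol library 4 it was 0.0814 for RIGI, 0.0585 for TRIM25 and 0.23 for MX2. Leaving out starved vehicle library 3 gave 0.0535 for RIGI and 0.193 for OAS3, and leaving out starved vehicle library 4 gave 0.0692 for RIGI, 0.11 for TRIM25, 0.19 for OAS3 and 0.38 for MX2. Without the low-count filter OAS3 was not called either. DESeq2 called JAK1 among the members, did not call RIGI, TRIM25 or OAS3, and gave no adjusted p for MX2.

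**Figure D2:**
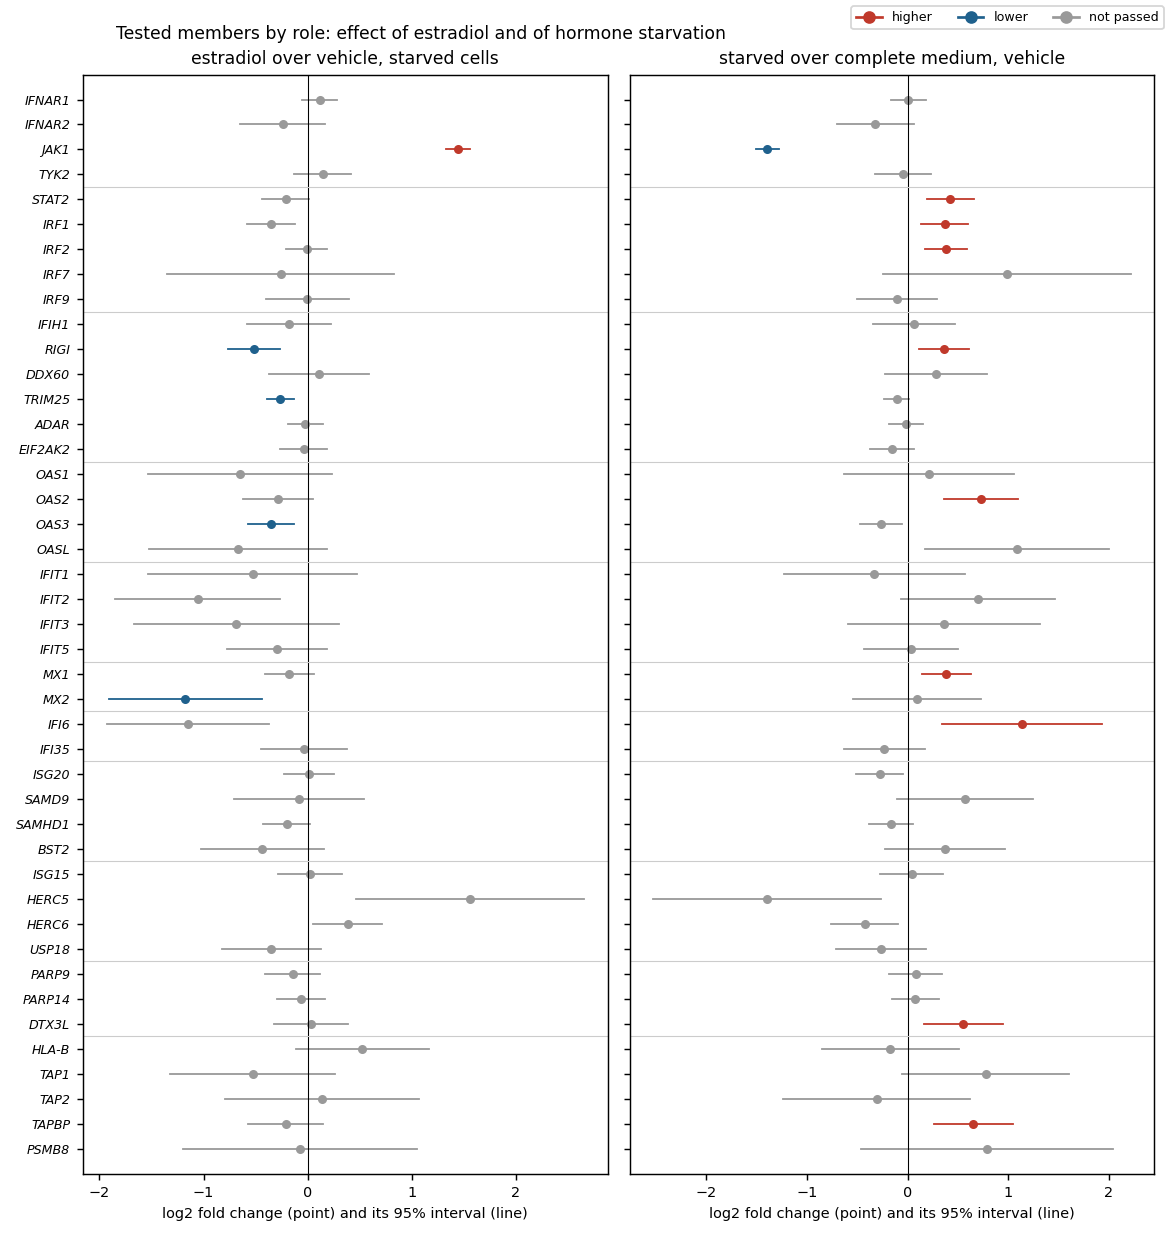
Log2 fold change (point) and 95% interval (line) of the 43 tested members in order of role, for estradiol over vehicle in starved cells (left) and starved over complete medium in vehicle (right), in red where called higher, blue where called lower and grey where not passed. JAK1 lies at 1.44 on the left and at -1.39 on the right, RIGI at -0.51 and 0.36, and genes of low count such as HERC5 have wide intervals.

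Starvation raised 9 members in vehicle-treated cells and lowered JAK1 alone. Those that rose were the transcription factors STAT2, IRF1 and IRF2, the sensor RIGI, the effectors OAS2, MX1 and IFI6, the ubiquitin ligase DTX3L and the peptide loading factor TAPBP. The other 33 tested members did not pass. Among all genes, 18.8% were called, 9.1% higher and 9.67% lower, against which 10 of 43 is close to the background. The 9 that rose are a larger share of 43 than the 9.1% of all genes, a difference that was not tested. The median log2 fold change was 0.07 over the tested members and 0.01 over all genes.

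The transcription factors were the class with most calls, 3 of 5. STAT2 had 36.6 and 36.0 CPM in starved vehicle libraries, against 26.6 and 27.5 CPM in complete vehicle libraries (log2 fold change 0.43 ± 0.11; adjusted p = 0.0105). IRF2, which competes with IRF1 at the same sites, had 64.9 and 79.5 CPM in starved cells, against 55.8 and 54.6 CPM in complete medium (0.38 ± 0.10; adjusted p = 0.00849). IRF1 had 39.0 and 44.4 CPM in starved cells, against 35.0 and 28.9 CPM in complete medium (0.37 ± 0.11; adjusted p = 0.0232). The groups did not overlap in any of the 3. Non-overlap was common in this comparison, at 24 of the 43 tested members and 58.7% of all genes. IRF9, the DNA-binding partner of STAT2, had 12.9 and 12 CPM in starved cells, against 14.0 and 12.6 CPM in complete medium, and overlapped. IRF7 was too low to judge, with 4 to 13 counts per library.

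Among sensors and effectors, RIGI had 33.5 and 33.9 CPM in starved cells, against 29.4 and 22.4 CPM in complete medium (log2 fold change 0.36 ± 0.12; adjusted p = 0.0394). OAS2 had 13.1 and 16.2 CPM in starved cells, against 9.38 and 8.15 CPM in complete medium (0.73 ± 0.17; adjusted p = 0.00477). Both starved libraries were above both complete-medium libraries for each gene, and the OAS family did not move as one. OAS3 had 34.1 and 34.1 CPM in starved cells, against 42.1 and 39.5 CPM in complete medium, a change of -0.26 ± 0.10 that did not pass (adjusted p = 0.073).

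MX1, a GTPase that blocks influenza and other viruses, had 26.0 and 24.4 CPM in starved cells, against 18.6 and 20.2 CPM in complete medium (log2 fold change 0.39 ± 0.12; adjusted p = 0.0242). IFI6 had 3.12 and 3.65 CPM in starved cells, against 1.27 and 1.83 CPM in complete medium (1.14 ± 0.38; adjusted p = 0.0405). IFI6 is carried by 8 to 25 counts per library, the fewest among the 9. DTX3L had 13.1 and 12.9 CPM in starved cells, against 8.75 and 8.96 CPM in complete medium (0.56 ± 0.19; adjusted p = 0.0434). PARP9, with which DTX3L forms a complex and shares an overlapping start region, had 24.7 and 27.8 CPM in starved cells, against 26.4 and 22.8 CPM in complete medium, and overlapped.

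TAPBP had 13.1 and 14.5 CPM in starved cells, against 8.75 and 8.76 CPM in complete medium (log2 fold change 0.65 ± 0.19; adjusted p = 0.0171). It overlaps RGL2 in the annotation, and their counts could be shared. The other tested antigen presentation genes, HLA-B, TAP1, TAP2 and PSMB8, did not pass, with log2 fold changes from -0.31 for TAP2 to 0.79 for PSMB8. HERC5 and HERC6 were lower in starved cells, again without passing. HERC6 had 11.9 and 11.1 CPM in starved cells, against 16.9 and 13.8 CPM in complete medium (-0.43 ± 0.16; adjusted p = 0.072).

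All 9 rises were lost under at least 1 omission. Without starved vehicle library 4, adjusted p was 0.0504 for STAT2, 0.227 for IRF1, 0.21 for IRF2, 0.151 for RIGI, 0.088 for OAS2, 0.0577 for MX1, 0.202 for IFI6, 0.137 for DTX3L and 0.122 for TAPBP. Without starved vehicle library 3 it was 0.0681 for STAT2, 0.124 for RIGI, 0.156 for MX1, 0.0906 for IFI6 and 0.168 for DTX3L. Without complete vehicle library 3 it was 0.108 for STAT2, 0.062 for IRF2, 0.21 for MX1, 0.302 for IFI6, 0.213 for DTX3L and 0.117 for TAPBP. Without complete vehicle library 4 it was 0.239 for IRF1, 0.0591 for IRF2, 0.39 for RIGI, 0.0554 for OAS2, 0.054 for MX1, 0.0703 for IFI6, 0.138 for DTX3L and 0.0795 for TAPBP. DESeq2 called JAK1 and IRF2, and gave no adjusted p for IFI6.

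**Figure D3:**
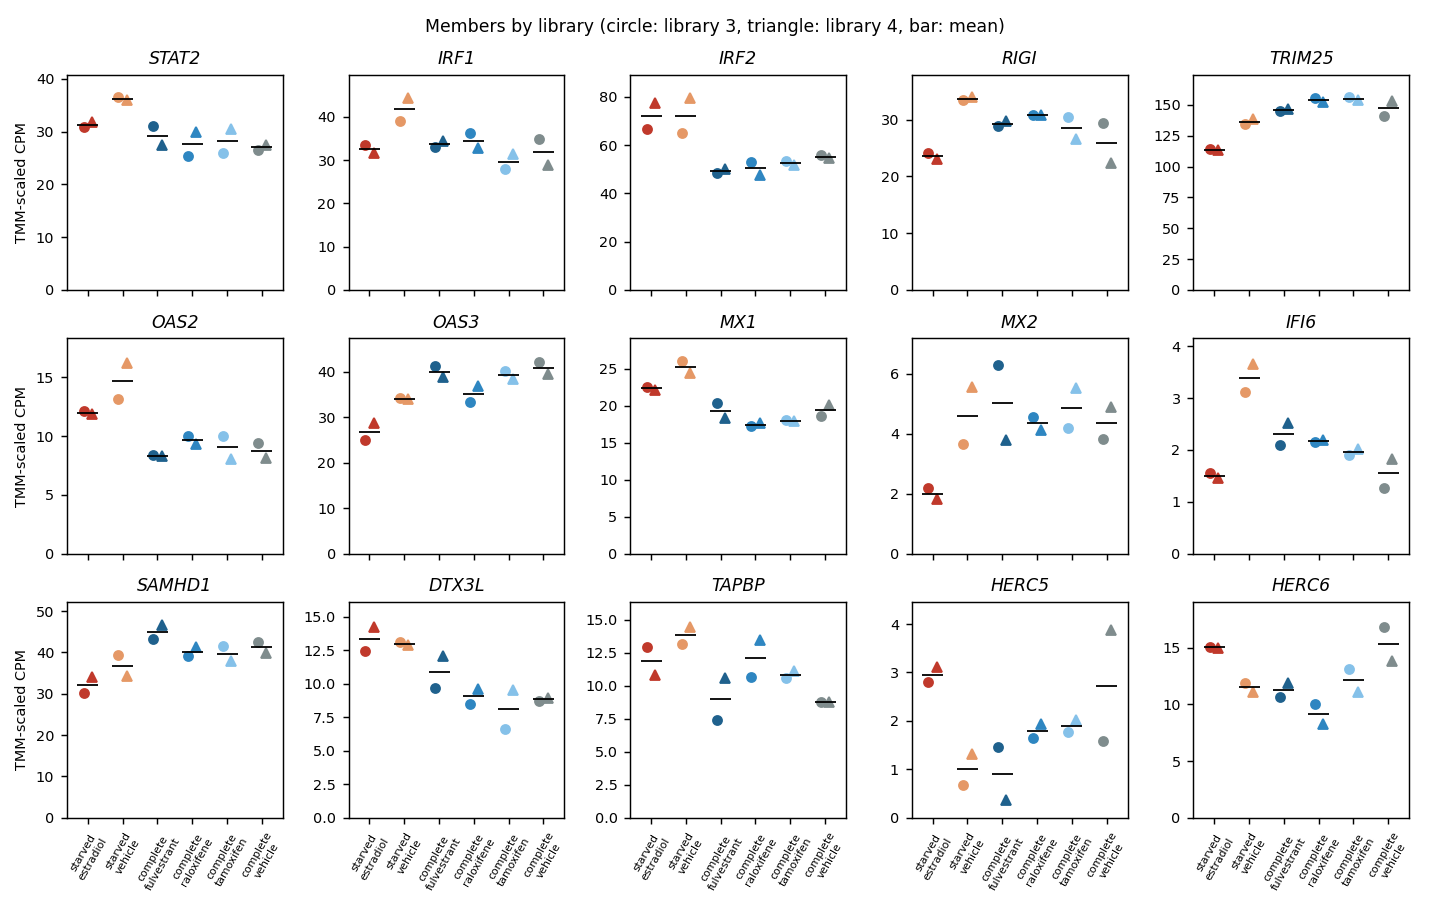
TMM-scaled CPM of 15 members in each of the 12 libraries by group, with library 3 as a circle, library 4 as a triangle and the group mean as a bar, each panel on its own axis from 0. TRIM25 and OAS3 are lowest in the estradiol libraries, at 113 and 24.9 CPM, while the lowest starved library of IRF2, at 64.9 CPM, lies above the highest of complete medium, at 55.8 CPM.

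Of 64 further pathway genes tested, starvation raised 11 and lowered 3, where 9.1% of all genes were called higher and 9.67% lower. Whether the list differs from all genes was not tested. STAT3, the STAT of the interleukin-6 pathway, stood at 193 CPM in starved cells, against 138 CPM in complete medium (log2 fold change 0.49 ± 0.06; adjusted p = 1.13e-05). CALR, a chaperone of class I loading, stood at 76.3 CPM in starved cells, against 48.1 CPM in complete medium (0.67 ± 0.10; adjusted p = 2.95e-05). PNPT1, a mitochondrial RNA-degrading enzyme induced by interferon, fell by 0.57 on the log2 scale (adjusted p = 0.000275), and ZC3HAV1, an antiviral zinc finger protein, fell by 0.34 (adjusted p = 0.00135). These 4 calls held without any 1 of the 4 libraries.

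Starved cells with estradiol differed from vehicle-treated cells of complete medium in 5 of the 43 tested members, where 16.2% of all genes were called, 8.09% higher and 8.11% lower. These groups differ in both medium and treatment. TRIM25 and OAS3 fell furthest beyond their spread. TRIM25 had 114 and 113 CPM in starved cells with estradiol, against 141 and 153 CPM in complete vehicle cells (log2 fold change -0.37 ± 0.06; adjusted p = 0.000208). OAS3 had 24.9 and 28.7 CPM in starved cells with estradiol, against 42.1 and 39.5 CPM in complete vehicle cells (-0.62 ± 0.11; adjusted p = 0.000286). Both calls held under all 10 alternatives, DESeq2 and each omitted library included. SAMHD1, which depletes the nucleotides that viruses need, had 30.2 and 34.1 CPM in starved cells with estradiol, against 42.5 and 39.9 CPM in complete vehicle cells (-0.37 ± 0.11; adjusted p = 0.0247). SAMHD1 overlaps the protein-coding gene TLDC2, and whether their counts are shared was not tested.

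IRF2 and DTX3L, higher in starved cells with vehicle, were also higher in starved cells with estradiol. IRF2 had 66.6 and 77.2 CPM in starved cells with estradiol, against 55.8 and 54.6 CPM in complete vehicle cells (log2 fold change 0.38 ± 0.10; adjusted p = 0.013). DTX3L had 12.4 and 14.2 CPM in starved cells with estradiol, against 8.75 and 8.96 CPM in complete vehicle cells (0.59 ± 0.19; adjusted p = 0.0415). The complete vehicle libraries are shared with the starvation comparison. The calls other than TRIM25 and OAS3 were lost without complete vehicle library 3 (adjusted p = 0.0752 for IRF2, 0.223 for SAMHD1 and 0.199 for DTX3L) or without complete vehicle library 4 (0.0785 for IRF2, 0.0688 for SAMHD1 and 0.133 for DTX3L). Without estradiol library 3 the adjusted p was 0.266 for SAMHD1 and 0.0734 for DTX3L, and without estradiol library 4 it was 0.177 for IRF2 and 0.227 for DTX3L.

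On the further pathway list, 8 of 64 tested genes were higher and 4 lower in starved cells with estradiol than in complete vehicle cells. Among all genes, 8.09% were called higher and 8.11% lower, and the difference was not tested. The values were 0.88 for CALR (adjusted p = 1.31e-06), -0.46 for ZC3HAV1 (adjusted p = 0.000116) and 0.40 for STAT3 (adjusted p = 0.000164) on the log2 scale. HELZ2, an interferon-induced helicase and coactivator, had 0.58 (adjusted p = 0.0102), a call lost without estradiol library 3 (0.0773), complete vehicle library 3 (0.0503) or complete vehicle library 4 (0.0723).

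Summed over classes, the counts showed where most of the change lay. The 9 signalling genes (receptors, kinases and transcription factors) summed to 775 ± 30.9 CPM with estradiol and 454 ± 10.6 CPM with vehicle in starved cells (SD, n = 2 each). Of these sums JAK1 alone gave 521 CPM with estradiol and 191 CPM with vehicle. The transcription factors among them summed to 150 ± 5.89 CPM with estradiol and 164 ± 13.5 CPM with vehicle. All 50 members summed to 1376 ± 18.3 CPM with estradiol and 1122 ± 5.8 CPM with vehicle. Without JAK1 the members summed to 855 ± 20.3 CPM with estradiol and 931 ± 10.6 CPM with vehicle, a log2 ratio of -0.12. The 32 induced effectors, among which TRIM25 and ADAR had the highest counts, summed to 578 ± 14.3 CPM with estradiol and 644 ± 6.78 CPM with vehicle. In the 4 groups of complete medium their means lay between 649 and 655 CPM. These sums were not tested.

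Some smaller families are also given as sums, since several of their members had few counts. The IFIT family summed to 11.1 ± 2.33 CPM with estradiol and 15.8 ± 0.839 CPM with vehicle in starved cells, a log2 ratio of -0.50 with no overlap. All 4 IFIT genes overlap the protein-coding gene LIPA, which had 35.3 and 36.9 CPM with estradiol, against 42.4 and 44.4 CPM with vehicle, without passing (adjusted p = 0.0881). Whether LIPA's reads enter the IFIT counts was not tested. The OAS family summed to 42.4 ± 3.37 CPM with estradiol and 54.4 ± 0.841 CPM with vehicle, a log2 ratio of -0.36. OAS3 alone gave 26.8 CPM of this sum with estradiol and 34.1 CPM with vehicle. Vehicle-treated cells of complete medium had 53.1 ± 3.39 CPM for the OAS family, so starvation with vehicle left the sum overlapping with theirs. The ISG15 system lay the other way with estradiol, at 54.4 ± 3.82 CPM against 50.4 ± 5.34 CPM with vehicle in starved cells, and overlapped. The transcription factors summed to 164 ± 13.5 CPM in starved vehicle cells and 128 ± 5.21 CPM in complete vehicle cells, a log2 ratio of 0.36.

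The antigen presentation genes had low CPM as a class, and CPM is not scaled by gene length. Their lengths run from 3305 bases for HLA-B to 16909 for TAP2. Other members run from 1044 bases for ISG15 to 234518 for JAK1. The antigen presentation genes summed to 24.9 ± 1.94 CPM in starved vehicle cells and 18.8 ± 1.63 CPM in complete vehicle cells, of which TAPBP was the largest part. The class had 23.2 ± 1.77 CPM with estradiol in starved cells and overlapped with starved vehicle. HLA-E and PSMB9 had 0 counts in all 12 libraries, as had IFI27, and a count of 0 allows up to 3 counts, or 0.38 to 0.825 CPM depending on the library. B2M had 2 to 8 counts per library and HLA-C 0 to 2, too few for any comparison, while HLA-B had 12 to 31. Why genes that epithelial cells commonly use were so low in this table was not tested. The region counted is not given, and whether reads of these genes could be placed and counted was not tested either.

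**Figure D4:**
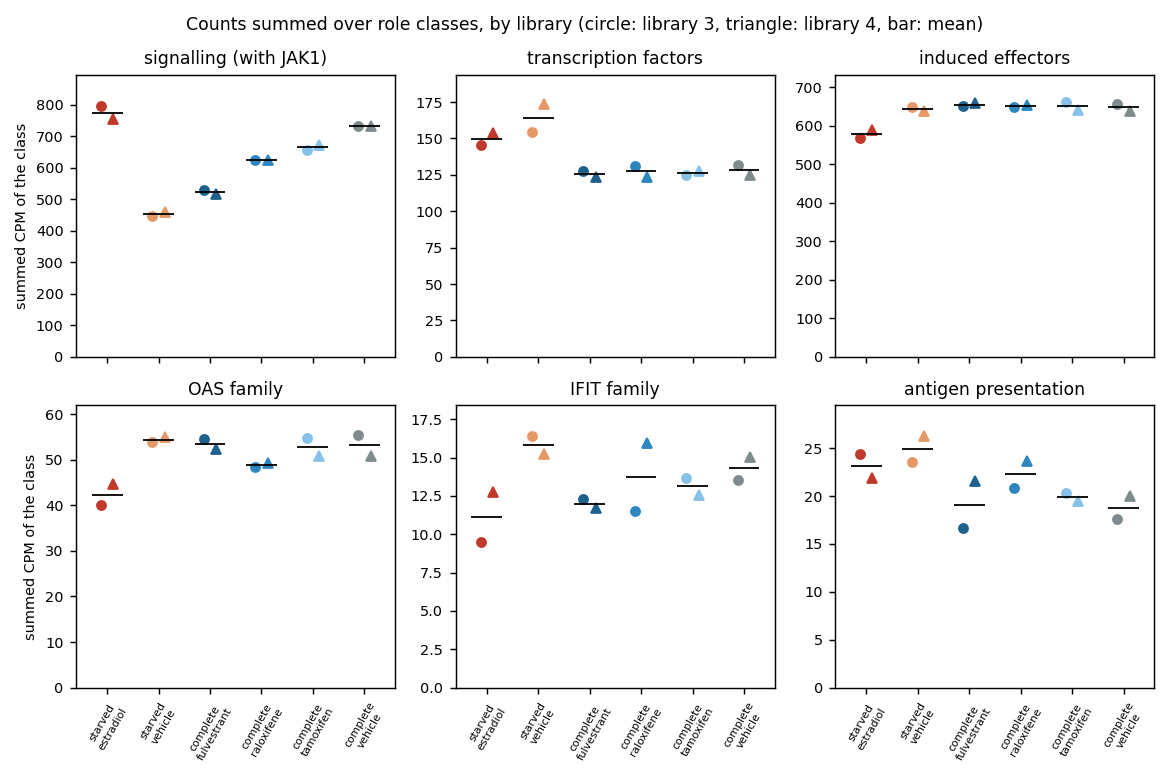
CPM summed over 6 gene classes in each of the 12 libraries by group, with library 3 as a circle, library 4 as a triangle and the group mean as a bar, each panel on its own axis from 0. The signalling sum, which includes JAK1, is lowest in starved vehicle cells at 454 CPM, and the induced effectors are lowest with estradiol at 578 CPM.

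In complete medium the 3 drugs were compared with vehicle, and among the members JAK1 alone was called. Fulvestrant gave 304 and 293 CPM, against 499 and 507 CPM with vehicle, a fall with a log2 fold change of -0.75 ± 0.06 (adjusted p = 2.94e-08). This comparison called 1.16% of all genes. Raloxifene gave 398 and 404 CPM, also apart from vehicle (-0.33 ± 0.05; adjusted p = 0.00344), in a comparison that called 0.569% of all genes. The raloxifene call was lost without complete vehicle library 3 (adjusted p = 0.057) or library 4 (0.0666).

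Tamoxifen gave 427 and 447 CPM for JAK1, below both vehicle libraries. Its log2 fold change of -0.20 ± 0.05 had a 95% interval from -0.32 to -0.09 and did not pass (unadjusted p = 0.00113 and adjusted p = 0.339, edgeR's quasi-likelihood test). Tamoxifen called 0.0513% of all genes and 0 of the 43 members, with 2 of them at an unadjusted p under 0.05, and DESeq2 called 0 as well. With the library number added to the fit as a block, JAK1 was called, and over all genes 58 were higher and 114 lower. The drug comparisons share the complete vehicle libraries.

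The drugs were also compared with one another, as 3 pairs at the same dose and time, with p-values adjusted over all genes within a pair. JAK1 was higher with tamoxifen than with fulvestrant, at 427 and 447 CPM against 304 and 293 CPM (log2 fold change 0.55 ± 0.06; adjusted p = 6.21e-06). It was also higher with raloxifene than with fulvestrant, at 398 and 404 CPM against 304 and 293 CPM (0.43 ± 0.06; adjusted p = 0.000535). Between tamoxifen and raloxifene the difference was 0.12, with a 95% interval from 0.01 to 0.24 (adjusted p = 1). All genes were called at 0.462% for tamoxifen against fulvestrant, 0.103% for raloxifene against fulvestrant and 0.00428% for tamoxifen against raloxifene. DESeq2 also called 0 members in that last pair, where 2 members had an unadjusted p under 0.05.

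HERC6 was the nearest other member under a drug. It had 10.0 and 8.25 CPM with raloxifene, against 16.9 and 13.8 CPM with vehicle, and did not pass (log2 fold change -0.72 ± 0.17; adjusted p = 0.07). With fulvestrant HERC6 had 10.7 and 11.9 CPM (-0.46 ± 0.17; adjusted p = 0.389), and with tamoxifen 13.1 and 11.1 CPM (-0.34 ± 0.16; adjusted p = 0.753), both against the same vehicle libraries. RIGI, TRIM25, OAS3 and MX2, the members that fell with estradiol, had log2 fold changes under the drugs from -0.24 for OAS3 with raloxifene to 0.24 for MX2 with fulvestrant. None of these passed. The median over the tested members was 0.03 for fulvestrant, 0.03 for raloxifene and -0.04 for tamoxifen. Of the further pathway genes, 0 of 64 were called under any drug against vehicle, where 7 had an unadjusted p under 0.05 with fulvestrant, 1 with raloxifene and 3 with tamoxifen.

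IFNGR1, a chain of the interferon gamma receptor, was lower with tamoxifen at 9.51 CPM than with fulvestrant at 15.5 CPM (log2 fold change -0.71 ± 0.16; adjusted p = 0.0468). That call was lost without any 1 of the libraries, with adjusted p of 0.522 without tamoxifen library 3, 0.119 without tamoxifen library 4, 0.197 without fulvestrant library 3 and 0.457 without fulvestrant library 4.

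**Figure D5:**
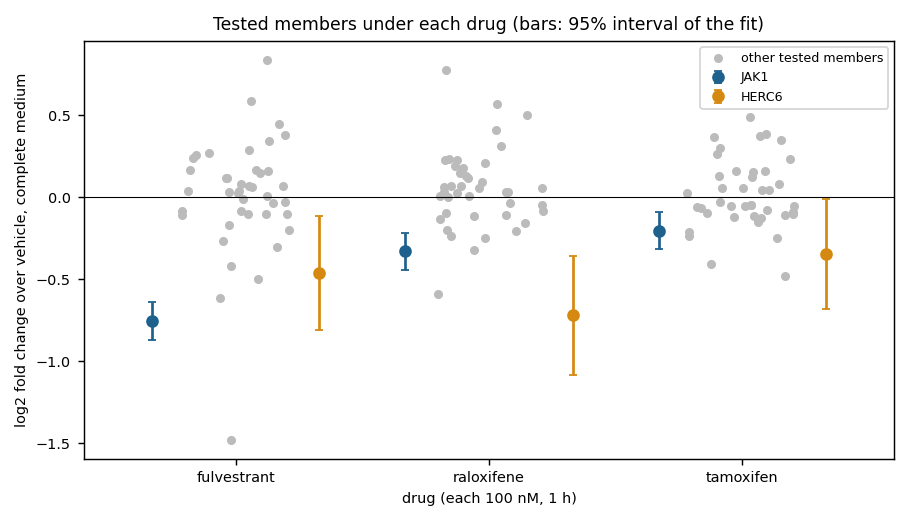
Log2 fold change over complete-medium vehicle of the 43 tested members for fulvestrant, raloxifene and tamoxifen, with JAK1 in blue and HERC6 in orange with their 95% intervals and the other members as grey points, spread sideways for legibility. JAK1 lies at -0.75 with fulvestrant, -0.33 with raloxifene and -0.20 with tamoxifen, and the lowest grey point is HERC5 under fulvestrant at -1.48.

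Called members were found both with and without an ISRE core. Of the 21 tested members with a match, 0 were higher and 1 lower with estradiol, beside 1 higher and 2 lower of the 14 with a listed promoter and no match. In starved against complete vehicle cells, 4 of the 21 members with a match were higher and 0 lower, beside 3 higher and 1 lower of the 14 without. Of all genes tested, 5.04% were called higher and 3.74% lower with estradiol. For starved against complete vehicle cells these shares were 9.1% and 9.67%. Another 8 tested members, among them MX2, IRF2 and OAS2, had no listed promoter. The median log2 fold change with estradiol was -0.14 over members with a match and -0.03 over those listed without one. Over members with no listed promoter it was -0.32. In starved against complete vehicle cells the medians were 0.08, -0.08 and 0.54 in the same order. These splits were not tested.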

How the data were processed

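PRO-seq was measured in 12 libraries of T47D cells. The authors deposited raw, unscaled counts by Ensembl gene. The submitters' processing notes name hg38, cutadapt 1.8.1, Bowtie2 2.4.4 and SAMtools 1.9. The counter, its annotation and strand setting, and the region counted are not given in the sources, so overlapping and antisense genes are uncertain. Of 60605 IDs, 60463 had a symbol, leaving 142 with 0.281% of counts. Where IDs shared a symbol, the one with most counts was kept, leaving out 1195 IDs with 0.0741% of counts.

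Groups came from the labels. Counts were fitted in R 4.3.3 with edgeR 4.0.16 (filterByExpr, TMM, quasi-likelihood, the 6 groups over 12 libraries), and p-values were adjusted by Benjamini-Hochberg over 23375 genes, with a threshold of 0.05. Levels are TMM-scaled CPM. Intervals cover 95% and rest on the fit. Duplicate reads were not separable from molecules, and limits from a count of 0 cover counting error only. Libraries of a group differed by more than sampling noise (chi-square per gene 1.2 to 2.34). Positions and promoters came from RefSeq GRCh38.p14, with sequences credited to RefSeq.

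Members, role classes and lists were chosen with earlier results of these data known. Members could all be named, with values per library for those called. Further pathway genes were named where called, at most 4 per comparison by adjusted p. Alternatives were other scaling, no low-count filter, library number as a block, only the groups compared, each library left out, and DESeq2 1.42.0.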

Additional observations from a re-analysis of the deposited data

How the results depend on the processing

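Library numbers 3 and 4 occur in every group, but the labels do not say that a number marks a shared culture or day, and same-numbered libraries had deviations correlated between 0.0563 and 0.362, so the libraries were not treated as paired. With the library number as a replicate block, the members called were 8 for estradiol (5 without the block), 13 for starvation (10), 8 for starved estradiol against complete vehicle (5), 2 for raloxifene (1) and 1 for tamoxifen (0), which was JAK1, and the count did not change in the other 4 comparisons. Without the low-count filter raloxifene called 2 members, JAK1 and HERC6, and the estradiol and starvation counts held, with HERC5 gained in both, OAS3 lost for estradiol and IFI6 lost for starvation. DESeq2 called 1 member for estradiol, 2 for starvation and 2 for starved estradiol against complete vehicle. Leaving out 1 library gave 1 to 3 members for estradiol, 1 to 5 for starvation, 2 to 3 for starved estradiol against complete vehicle and 0 to 1 for raloxifene, and changed no other count. In such fits a lone library is assumed to vary like the other groups.

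Of 238 alternative values of called members, 169 kept their call, 69 lost it and 0 changed sign. Of 375 alternative sums over classes, 8 moved by more than the spread between libraries, all without TMM scaling. Fewer libraries leave fewer degrees of freedom; the cause of the other changes was not tested. Members with few counts, such as IRF7, OAS1, OASL, IFI6, HERC5 and MX2, were measured with wide intervals. Over all genes, tamoxifen called 58 higher and 114 lower with the block, against 12 in all without it.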
